A study of Mus musculus with 2 samples.

Results

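The proteasome genes described here are the 46 genes of the count table whose symbols start with *Psma*, *Psmb*, *Psmc*, *Psmd*, *Psme*, *Psmf* or *Psmg* followed by a number, out of 17774 genes in all. By symbol, 17 belong to the 20S core (*Psma* and *Psmb*), 25 to the regulatory particles and their partners (*Psmc*, *Psmd*, *Psme* and *Psmf*) and 4 are assembly factors of the core (*Psmg*). One of the 25, *Psmc3ip*, is a meiotic recombination cofactor that only shares the letters of the symbol. No row was held under *Psma4*, *Psme3*, *Psmb11* or *Psme2b*, which were not analysed here. Of the 46 genes, 44 had a count in at least 3 cells and entered the comparison. *Psmb8* and *Psma8* did not, with 2 counts each in the uninjected library and 0 after GSK-J4.

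The data were single-cell RNA counts of cones from *Pde6c*.GFP mice, which carry the *Pde6c* cpfl1 mutation of a cone dystrophy and enhanced GFP under the *Chrnb4* promoter to mark cones, on a C57BL/6 background. Cones were sorted by GFP into the wells of a 96-well plate at PN24 from uninjected retinae and from retinae given 1 intravitreal injection of 10 µM GSK-J4, an inhibitor of H3K27 demethylases, 10 days earlier at PN14. Both groups carry the mutation and the transgene, and the comparison group received no injection. There was 1 library and 1 plate per condition, so plate, animals and treatment cannot be told apart, no test was possible, and all intervals cover counting error only.

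The 26S proteasome degrades proteins that carry ubiquitin chains. Its 20S core is a barrel of α rings at the ends and β rings in the middle, and *Psmb5*, *Psmb6* and *Psmb7* encode the β subunits that cut. The 19S particle caps the barrel, with a base of ATPases that unfold the substrate and a lid that removes ubiquitin, while 11S and PA200 activators offer other caps. Photoreceptors renew their outer segments throughout life and so turn over much protein.

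After filtering, the uninjected library held 82 cells with 1113424 counts (median 8118 per cell, range 860 to 98250) and the GSK-J4-treated library (called treated below) 64 cells with 208578 counts (median 2336, range 420 to 15371). The cone label held for the uninjected library, in which all 82 cells had counts of a list of 11 cone markers, at least 6 per cell summed over the list. It did not hold for most treated cells, since 50 of 64 had no cone marker count. Cone markers took 2.59% of uninjected and 0.213% of treated counts, 10 of the 11 were lower by the limit defined below, and 5 (*Opn1sw*, *Gngt2*, *Cngb3*, *Pde6c* and *Guca1a*) had no count after GSK-J4. Rod markers were also lower, at 0.134% and 0.0125%, as were Müller glia markers, at 0.0876% and 0.0268%. Bipolar and amacrine markers were higher in the treated library, at ratios of 1.78 (1.10 to 2.81) and 2.32 (1.36 to 3.85), with 1 of 5 genes beyond the limit in each list. Their shares stayed low, at 0.00701% and 0.0125% for bipolar and 0.00476% and 0.0110% for amacrine markers. Ganglion cell, microglia and retinal pigment epithelium markers took at most 0.00911% in either library. Odorant and vomeronasal receptor genes, which are not known as cone genes, took 0.626% and 1.47% of the counts as deposited. The part of these library-wide differences in the results on proteasome genes was not tested.

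Proteasome transcripts were scarcer in treated cells. The 44 genes held 3978 counts in uninjected cones, 0.357% of the library (0.346 to 0.369%), and 166 counts in treated cells, 0.0796% (0.0679 to 0.0927%). The share was 4.49-fold lower (95% interval 3.84 to 5.28). The log-fold of a gene is the natural log of its mean over cells, per 10000 counts and plus 1, in treated minus uninjected cones, and a gene was counted as lower or higher when it lay beyond 0.3. On this measure 24 of the 44 genes were lower and 0 were higher, whereas 11.8% of all 15947 filtered genes were lower and 12.6% higher. Since 1 is added to the mean, a gene with a low uninjected mean cannot be lower by this limit. *Psmb10*, for example, had a mean of 0.275 per 10000 counts, 0 treated counts and a log-fold of -0.24. Most of the proteasome genes within the limit had such a low mean. The median log-fold of the proteasome genes was -0.37 and that of all genes 0.03. A count in 10% or more of the cells was found for 37 of the 44 genes in the uninjected library and for 3 in the treated library, so that the filter on low counts was met mainly through the uninjected library, and the count of 24 is a description. No count at all was found after GSK-J4 for 20 of the 44 genes, against 14.7% of all genes.

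The same difference was seen cell by cell and at matched depth. No uninjected cell lacked proteasome counts, with a median of 11.5 of the 44 genes (range 1 to 34). Of the treated cells, 40 of 64 had such a count, with a median of 1 gene and a highest value of 5. Since the libraries differ in depth, each cell was thinned to 867 counts, which left 81 uninjected and 50 treated cells. At that depth 87.7% of uninjected and 34% of treated cells had a proteasome count, and the shares of counts were 0.375% and 0.0784%. Within the uninjected library the share changed little with depth, from 0.359% in the 27 shallowest cells to 0.386% in the 28 cells of middle depth and 0.350% in the 27 deepest. Within the treated library it was 0.0737% (0.0549 to 0.0969%) in the 14 cells with a cone marker count and 0.0825% (0.0681 to 0.0990%) in the 50 cells without. The first value rests on cells near that limit, since 11 of the 14 cells had 1 to 5 cone marker counts (8 of them exactly 1) and held 49 of the 51 proteasome counts. The other 3 cells, with 37 to 303 cone marker counts, had 2 proteasome counts among 15608, or 0.0128% (0.00155 to 0.0463%). With the 14 cells in place of all 64, 25 of the 44 genes were lower and 2 higher, and these too are mostly cells with few cone marker counts.

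**Figure D1:**
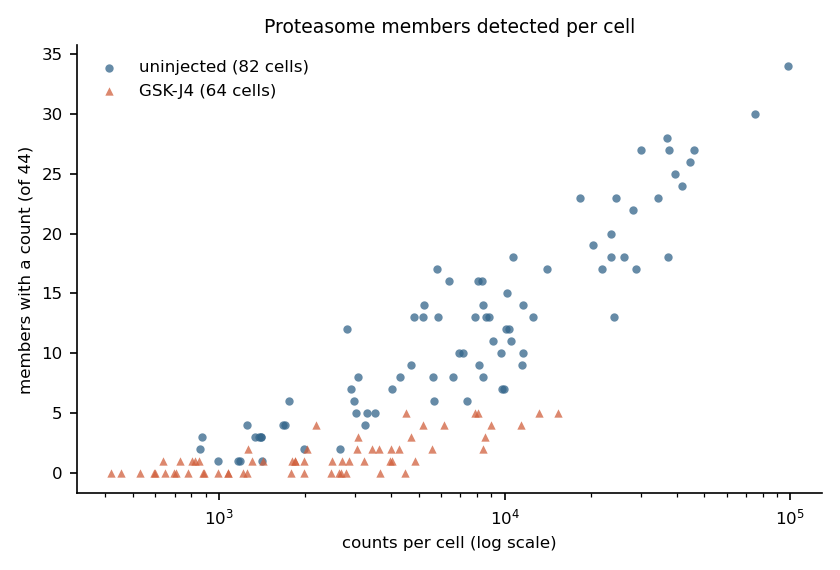
Number of the 44 proteasome genes with a count in each cell (vertical axis) against the counts of that cell (horizontal axis, log scale), with uninjected cones as circles and treated cells as triangles. At the same depth the treated cells lie below the uninjected cells for most of the range, and none holds more than 5 of the genes.

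Core genes were lower in 11 of 15, with a median log-fold of -0.55, and their share went from 0.150% (1668 counts) to 0.0288% (60 counts), a 5.21-fold difference (4.03 to 6.86). Regulatory genes were lower in 12 of 25, with a median of -0.25, and their share went from 0.195% (2167 counts) to 0.0446% (93 counts), a 4.37-fold difference (3.55 to 5.43). Assembly factors were lower in 1 of 4, with a median of -0.10, on 143 and 13 counts, a 2.06-fold difference (1.17 to 3.96). The other assembly factors had uninjected means of 0.009 to 0.327 per 10000 counts, too low to be lower by the limit. The numbers of lower genes in the groups therefore also follow their levels in uninjected cones. The intervals of the core and assembly folds do not overlap, that of the regulatory genes overlaps both, and the differences between the groups were not tested. In plate columns 1 to 6, the core share was 3.56-fold and the regulatory share 4.62-fold lower, so that the order of these groups depended on the setting. After thinning, the shares were 5.61-fold lower for core and 4.29-fold lower for regulatory genes. That of the assembly factors was then 6.17-fold lower, but on only 10 uninjected counts and 1 treated count, too few to place it among the groups.

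**Figure D2:**
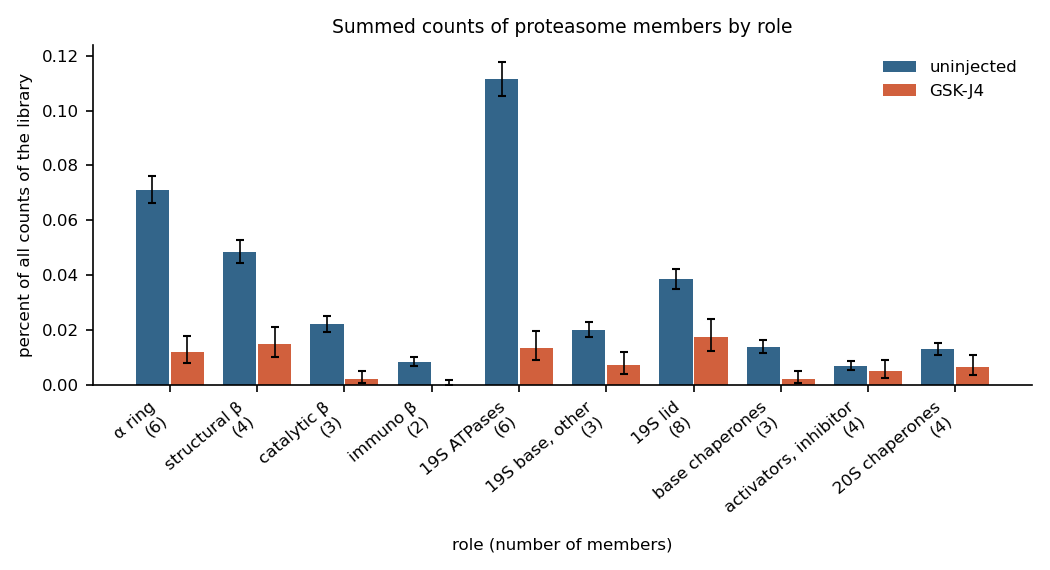
Percent of all counts of the library (vertical axis) taken by the proteasome genes of each role, with the number of genes in brackets, in uninjected and treated cells; bars start at 0 and error bars are 95% Poisson intervals of the summed count. The 19S ATPases hold the largest share in uninjected cones, 0.111%, and 0.0134% after GSK-J4, while the activators and inhibitor have overlapping intervals.

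All 6 α ring genes in the comparison were lower, with log-folds from -0.99 to -0.39 and 792 and 25 counts in uninjected and treated cells. *Psma6*, on chromosome 12 (chr12:55384222-55418454, GRCm38, plus strand), had 197 counts (170 to 227) in 32 of 82 uninjected cones and 0 in treated cells. It was 12.3-fold lower when the empty library is set at a floor of 3 counts, with a ratio interval up to 0.101. Of its 197 counts, 94 came from 1 cell, and 28 lay in plate columns 1 to 6 against 169 in columns 7 to 12. *Psma5* and *Psma2* also had no count after GSK-J4, from 155 and 83. *Psma7* was the α gene found in the most treated cells, with 188 counts in 44 uninjected cells and 14 counts in 10 of the 64 treated cells, 2.52-fold lower (1.46 to 4.69). *Psma1* had 65 and 10 counts, of which 9 came from 1 treated cell, and its 1.22-fold difference in the summed share (0.622 to 2.66) was within counting error. Its log-fold of -0.39 became 0.024 after thinning.

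The 4 structural β genes were all lower as well, between -0.56 and -0.46 in log-fold, with 539 and 31 counts. *Psmb4* had 143 counts in 23 uninjected cells and 0 after GSK-J4, 8.93-fold lower at the floor of 3 counts, with a ratio interval up to 0.139. *Psmb2* had 107 counts and 1 count. *Psmb1* had 160 and 10 counts, 3.0-fold lower (1.59 to 6.37). *Psmb3* stood apart, with 129 and 20 counts, 16 of the 20 in 1 cell, a summed share only 1.21-fold lower (0.751 to 2.04), and a log-fold of -0.55 that became 0.45 in the wells of plate columns 1 to 6.

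The 3 catalytic β genes were measured at very different levels. *Psmb6*, which encodes the caspase-like subunit (chr11:70525367-70527858, GRCm38, plus strand), had 206 counts (179 to 236) in 58 of 82 uninjected cells, more cells than any other proteasome gene, and 1 count in 1 of 64 treated cells. Its ratio of treated to uninjected rates was 0.0259 (0.000653 to 0.146) and its log-fold -1.08. *Psmb5*, the chymotrypsin-like subunit and the usual target of proteasome inhibitors, had 14 counts in 7 cells and 0 counts, and *Psmb7*, the trypsin-like subunit, had 25 and 3 counts. At this depth no difference could be shown for either, with ratio intervals up to 1.61 and 2.10. The immunoproteasome genes replace catalytic subunits in cells exposed to interferon. *Psmb10* had 83 counts in 12 uninjected cells, 66 of them in 1 cell, and 0 after GSK-J4, with a log-fold of -0.24. *Psmb9* had 9 and 0 counts.

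The 6 ATPases of the 19S base, which form a ring of 1 copy each, were split. *Psmc1* (198 counts), *Psmc3* (168), *Psmc4* (178) and *Psmc6* (110) had 0 counts in treated cells, at least 12.4-fold, 10.5-fold, 11.1-fold and 6.87-fold lower. *Psmc5* went from 228 counts to 2, a ratio of 0.0468 (0.00564 to 0.171). *Psmc2* was the exception. It was the most counted proteasome gene in both libraries, with 359 counts (323 to 398) in 51 uninjected cells and 26 counts in 15 of 64 treated cells. Its summed share was 2.59-fold lower (1.74 to 4.01) while its log-fold was -0.18, inside the limit. The 2 summaries differ because the mean over cells gives each cell the same weight. The log-fold of *Psmc2* was -0.63 with summed libraries and 0.16 against the treated cells with a cone marker count.

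The remaining base genes bind ubiquitin or hold the particle together. *Psmd4*, a ubiquitin receptor, had 133 counts in 37 cells and 7 counts in 2 cells, 3.56-fold lower (1.68 to 9.02), with a log-fold of -0.71. *Psmd2*, a scaffold, had 83 and 5 counts, 3.11-fold lower in summed share (1.28 to 9.83) with a log-fold of -0.17. *Psmd1*, the other scaffold, had only 5 and 3 counts, and its log-fold of 0.24, the highest of all 44 genes, rests on these 8 counts.

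The lid held the gene with the lowest log-fold and the pair of genes whose rates were higher after GSK-J4. *Psmd14*, the deubiquitinase that releases ubiquitin chains from substrates (chr2:61711694-61800376, GRCm38, plus strand), had the lowest log-fold of the 44 genes, -1.34. It had 156 counts (132 to 182) in 31 uninjected cells and 0 in treated cells, 9.74-fold lower at the floor of 3 counts, with a ratio interval up to 0.128. Of the 156 *Psmd14* counts, 77 came from 1 cell. Another cell, with only 1408 counts in all, held 15 of them and weighs as much as any other cell in the mean over cells. That mean, 2.81 per 10000 counts, exceeded the summed rate of 1.40. *Psmc1* (1.78) and *Psma6* (1.77), also without a treated count, had higher summed rates, so the rank of *Psmd14* depends on the summary. *Psmd8* had 117 and 0 counts and *Psmd11* 54 and 3. *Psmd7*, the partner of *Psmd14*, had 15 and 0 counts, which is too few to set a difference. *Psmd3* and *Psmd13* were the only proteasome genes whose rate was higher in treated cells beyond counting error. *Psmd3* had 42 counts in 20 uninjected cells and 20 counts in 10 treated cells, a ratio of 2.54 (1.41 to 4.43) and a log-fold of 0.19. *Psmd13* had 18 counts in 9 cells and 13 counts in 5 cells, 9 of them in 1 cell, a ratio of 3.86 (1.74 to 8.32) and a log-fold of 0.22. Both log-folds lay inside the limit of 0.3.

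Exons of *Psmd1*, *Psmd3* and *Psmd13*, the 3 genes with the highest log-folds, overlap exons of genes on the other strand in the annotation, namely *Htr2b*, *Gm12356* and *Sirt3*. Such an overlap was found for 11 of the 46 genes. No source says that strand was used in counting, so reads inside an overlap cannot be assigned to 1 gene of the pair. Stretches of 45 bases of the protein-coding transcripts of *Psmd13* also occur in *Sirt3*, whereas *Psmd1* shared none with *Htr2b* and *Psmd3* none with *Gm12356*.

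*Psmd5*, *Psmd9* and *Psmd10* encode chaperones that build the 19S base and leave it. *Psmd9* had 109 counts in 20 uninjected cells, 79 of them in 1 cell, and 1 count after GSK-J4, a log-fold of -0.83. *Psmd10*, also known as gankyrin, had 20 counts, 15 of them in 1 cell, and 0 after GSK-J4. Its log-fold of -0.85 became -0.05 without the cell of highest value. *Psmd5* had 24 and 3 counts and a log-fold of -0.02.

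The activators and the inhibitor of the core showed no difference that these counts could resolve. Of the 11S genes, *Psme1* had 4 counts and 0 after GSK-J4, and *Psme2* had 25 and 2. *Psme4*, which encodes PA200, had 20 and 5 counts, and *Psmf1*, which encodes the inhibitor PI31, 28 and 3. Their summed share was 1.44-fold lower with an interval of 0.744 to 3.13, and none of the 4 was beyond the limit. Their uninjected means, 0.067 to 0.289 per 10000 counts, were too low for any of them to be counted as lower, even without a treated count.

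Of the *Psmg* chaperones, which assemble the α ring, *Psmg4* had 75 counts in 19 uninjected cells and 0 in treated cells, with a log-fold of -0.57. It was 4.68-fold lower at the floor of 3 counts, with a ratio interval up to 0.269. *Psmg3* had 34 and 4 counts, *Psmg2* 31 and 7, and *Psmg1* 3 and 2, all with ratio intervals that include 1. *Psmg1* and *Psmg2* work as a pair, as do *Psmg3* and *Psmg4*. In the uninjected library *Psmg3* and *Psmg4* had 34 and 75 counts, 15 and 40 of them in the top cell of each gene. *Psmg1* and *Psmg2* had 3 and 31 counts, 3 and 6 of them in the top cell. A difference between the pairs was not tested. *Psmc3ip*, the gene outside the proteasome, had 48 and 0 counts and a log-fold of -0.30, and without it the median of the others was -0.39.

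**Figure D3:**
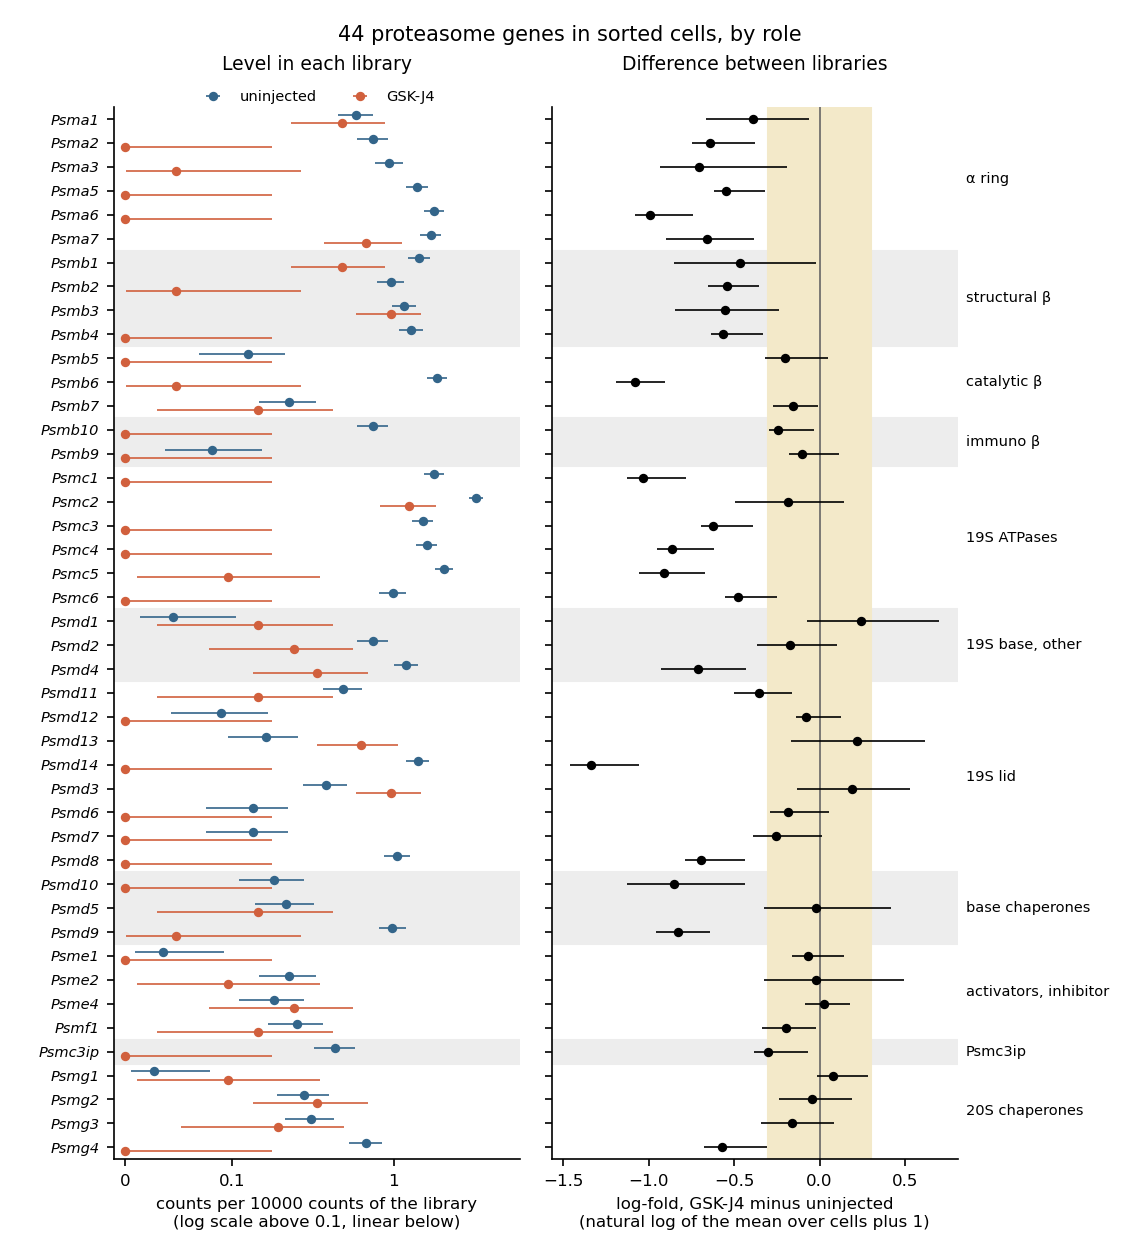
Left, counts of each of the 44 genes per 10000 counts of the library (log scale above 0.1, linear below) in uninjected and treated cells with 95% Poisson intervals; right, the log-fold with the range those intervals allow, and the band within 0.3 shaded. Genes are ordered by role, and *Psmd14*, *Psmb6* and *Psmc1* lie farthest to the left, at -1.34, -1.08 and -1.03. For *Psmd14*, 77 of the 156 uninjected counts came from 1 cell and 15 from a cell with only 1408 counts.

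The uninjected cones of the 2 sides of the plate differed strongly in single genes, proteasome genes among them. Well names placed 39 uninjected cells in plate columns 1 to 6 and 43 in columns 7 to 12, with 546722 and 566702 counts. Of the 44 genes, 25 had 50 to 500 uninjected counts, and 7 of these differed at least 10-fold in rate between the sides, 3 higher in columns 1 to 6 and 4 in columns 7 to 12. Among all 3036 genes with such counts, 9.29% were that much higher in columns 1 to 6 and 8.53% in columns 7 to 12. With sides under 3 counts set at 3, the median of the larger over the smaller rate was 3.75 for the proteasome genes and 2.02 for all. *Psma5* had 1 count in columns 1 to 6 and 154 in columns 7 to 12, in 1 and 23 cells. *Psmb4* had 1 and 142 counts, in 1 and 22 cells, and *Psmb10* 0 and 83, in 0 and 12 cells. In columns 7 to 12, 1 cell held 104 of the *Psma5*, 86 of the *Psmb4* and 66 of the *Psmb10* counts. Without the top cell of each gene, 50, 56 and 17 counts remained there. *Psmg4* had 5 and 70 counts.

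*Psmd9*, *Psmc4* and *Psmc6* went the other way. *Psmd9* had 108 counts in 19 cells of columns 1 to 6 and 1 count in columns 7 to 12, *Psmc4* 169 and 9 counts, and *Psmc6* 104 and 6 counts. Of the 108 *Psmd9* counts, 79 came from 1 cell. In contrast, *Psmc2* had 177 and 182 counts, *Psmc3* 83 and 85, *Psma2* 40 and 43, and *Psmb6* 109 and 97. The core share was 0.0887% in columns 1 to 6 and 0.209% in columns 7 to 12, while the regulatory share was 0.230% and 0.161%. Without the 7 genes that were 10-fold apart, the regulatory shares were 0.160% and 0.158% and the core shares 0.0883% and 0.142%. No label says what the sides stand for.

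The sides bear on the comparison with GSK-J4. Against the 33 treated cells of columns 1 to 6, 19 of the 44 genes were lower and 1 higher, and against the 31 cells of columns 7 to 12, 21 were lower and 1 higher. Of all genes, 13.0% were lower and 16.3% higher in columns 1 to 6, and 12.6% and 14.4% in columns 7 to 12. The summed share of the 44 genes was 4.0-fold and 4.96-fold lower on the 2 sides. Single genes depended more on the side. The log-folds of *Psma5* and *Psmb4* were -0.003 and -0.020 in columns 1 to 6, where uninjected cells held 1 count of each, and -0.87 and -0.88 in columns 7 to 12. That of *Psmd9* was -1.29 and -0.01. *Psmd3* was lower in columns 1 to 6, at -0.47, and higher in columns 7 to 12, at 0.75.

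**Figure D4:**
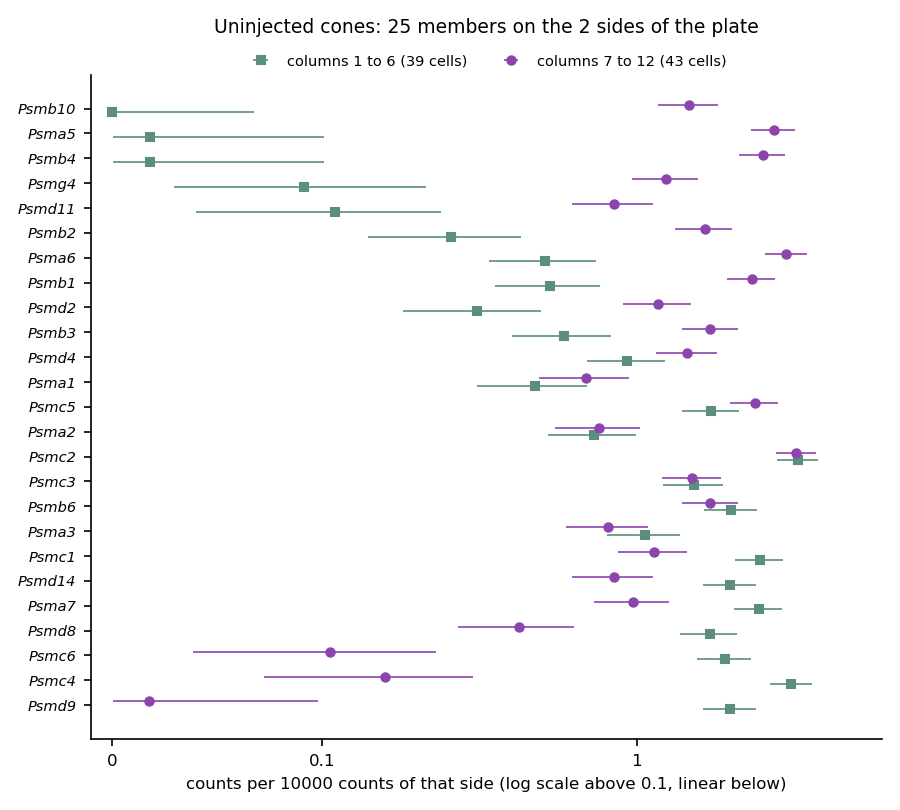
Rate of the 25 proteasome genes with 50 to 500 uninjected counts in uninjected cones of plate columns 1 to 6 (squares) and 7 to 12 (circles), as counts per 10000 counts of that side (log scale above 0.1, linear below) with 95% Poisson intervals. *Psmb10*, *Psma5*, *Psmb4* and *Psmg4* at the top and *Psmc6*, *Psmc4* and *Psmd9* at the bottom lie at least 10-fold apart, and *Psmc2*, *Psmc3* and *Psma2* nearly coincide.

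The levels of the genes within uninjected cones were compared per length, as counts per 10000 counts and per kilobase of coding sequence. The counts come from 3' and 5' ends, which need not rise with length, so the ranks depend on this division. *Psmb6* had the highest level, 2.59, followed by *Psma6* (2.40), *Psma7* (2.27), *Psmc2* (2.26) and then *Psmb1* (2.0), all with overlapping counting intervals. At the low end were *Psme1* (0.0481), *Psme4* (0.0325), *Psmg1* (0.0311) and *Psmd1* (0.0157). Without division by length *Psmc2* had the highest rate, 3.22 per 10000 counts, before *Psmc5* (2.05) and *Psmb6* (1.85). *Psme4*, with the longest coding sequence of these genes, was then at 0.180 and *Psmg1* at 0.0269. Subunits that occur in equal numbers in the complex were not counted equally, since the ATPases ranged from 0.847 for *Psmc6* to 2.26 for *Psmc2*, and *Psmb5* and *Psmb7* were at 0.159 and 0.270 beside 2.59 for *Psmb6*. Single cells supplied much of some totals, with 79.5% of the *Psmb10* counts, 72.5% of those of *Psmd9* and 67.1% of those of *Psma5* coming from 1 cell each. For *Psma3* and *Psmb6* the share of the top cell was 11.5% and 15.5%.

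Near-identical gene copies limit some of these levels. Of the stretches of 45 bases in their protein-coding transcripts, over 50% also occur in transcripts of other genes for 4 genes, *Psma5*, *Psmb3*, *Psmb5* and *Psme2*, chiefly in annotated pseudogenes and, for *Psme2*, in *Psme2b*. Their counts are uncertain, since the treatment of reads that match several genes is not stated. For 22 of the 46 genes no such stretch was shared.

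Other genes of the ubiquitin and proteasome pathway were given by a fixed list of 30, of which 28 passed the filter. Of these 9 were lower and 3 higher, with a median log-fold of -0.07, whereas 11.8% of all filtered genes were lower and 12.6% higher. Those that were lower encode ubiquitin itself or parts and partners of the particle. *Ubb*, a polyubiquitin gene, had 608 counts in 79 uninjected cells and 1 count after GSK-J4, with a log-fold of -2.01. *Rps27a*, which encodes ubiquitin fused to a ribosomal protein, was also lower, with 379 and 1 counts. *Pomp*, the maturation factor of the 20S core, had 464 counts in 62 cells and 44 counts in 10 cells, with a log-fold of -1.15. *Sem1*, a small lid subunit, had 145 and 3 counts, and *Adrm1*, a ubiquitin receptor of the base, 103 and 1.

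The genes that were higher rest on few counts. *Vcp*, the segregase that extracts ubiquitinated proteins, had 30 and 6 counts and a log-fold of 0.53, with a ratio interval that includes 1 (up to 2.61), *Ngly1* 16 and 9 counts and 0.44, and *AI314180*, which encodes a proteasome adaptor, 15 and 10 counts and 0.32. The ratio intervals of *Ngly1* (1.17 to 7.22) and *AI314180* (1.43 to 8.47) lay above 1. *Nfe2l1*, the transcription factor that raises proteasome genes when the proteasome is inhibited, had 3 and 6 counts. Its ratio was 10.7 (2.28 to 66.0) with 5 of the 6 counts in 1 cell, and its log-fold 0.14. *Zfand2a*, with 1 and 5 counts, also had a ratio interval above 1, from 2.99, and a log-fold of 0.17. *Uba1*, the main ubiquitin-activating enzyme, had 202 and 18 counts and a log-fold of 0.04. Its summed share was 2.10-fold lower (1.30 to 3.62), with 103 of the 202 counts in 1 cell. Of 7 genes of antigen presentation that passed the filter, 2 were lower and 0 higher, against 11.8% and 12.6% of all filtered genes. Among the lower ones was *B2m*, the light chain of MHC class I, with 28 and 0 counts and a log-fold of -0.32.

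Promoters were searched for the core of the antioxidant response element, the sequence that *Nfe2l1* and *Nfe2l2* bind at proteasome genes, because many of the genes were lower together. RefSeq promoter windows (GRCm38.p6, 250 bases before to 50 after the start) were held for 38 of the 46 genes and were not held for *Psma8*, *Psmb1*, *Psmb2*, *Psmb7*, *Psmc3*, *Psmd3*, *Psmd7* and *Psmg2*. The motif, TGACNNNGC or TGAGNNNGC on either strand, was present in 16 of the 38 genes (42.1%), against 34.8% of the 11789 filtered genes with a promoter and 30.8% of all 27025 genes. It was in 9 of the 21 genes that were lower and in 7 of the 16 that were within the limit. GGGCGG, the GC box, was in 22 of 38 genes (57.9%) and 60.1% of filtered genes. CCAAT was in 13 of 38 genes (34.2%) and 41.7% of filtered genes, and it was in 11 of the 21 lower genes and 2 of the 16 within the limit. Genes with a low uninjected mean cannot be lower by the limit, so the 2 sets also differ in level, and the part of level was not tested. The motifs may overlap, and a match is a description of the letters only.

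Windows around the motif are shown for the catalytic genes *Psmb6* and *Psmb5*, the former lower and the latter too little counted to tell, for *Psmc2*, the most counted gene, and for *Psma6*, with no count after GSK-J4. Each is written 5' to 3' on the strand of the gene, with the motif in capitals. The RefSeq starts used for *Psmb5*, *Psmc2* and *Psma6* lie inside the genes as annotated by GENCODE. The motif reads as written in *Psmb6*, *Psmb5* and *Psmc2* and as its reverse complement in *Psma6*.
Psmb6 (chr11:70525308-70525356, GRCm38, plus strand): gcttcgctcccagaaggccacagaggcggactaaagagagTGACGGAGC
Psmb5 (chr14:54617996-54618082, GRCm38, minus strand): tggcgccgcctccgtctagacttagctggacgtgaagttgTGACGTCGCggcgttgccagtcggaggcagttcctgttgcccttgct
Psmc2 (chr5:21786573-21786661, GRCm38, plus strand): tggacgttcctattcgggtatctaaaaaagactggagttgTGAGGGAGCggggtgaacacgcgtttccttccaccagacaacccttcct
Psma6 (chr12:55398693-55398781, GRCm38, plus strand): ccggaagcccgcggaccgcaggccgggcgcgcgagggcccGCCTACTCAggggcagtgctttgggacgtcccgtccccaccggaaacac
In *Psmb6* the motif ends at the base next to the start, in *Psmb5* it lies 47 to 39 bases before it, in *Psmc2* 134 to 126 bases and in *Psma6* 92 to 84 bases. *Psma6* also held the motif 170 to 162 bases before its other RefSeq start, within chr12:55384012-55384100. These genes had log-folds of -1.08, -0.20, -0.18 and -0.99, so that the motif was found in genes on both sides of the limit.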

How the data were processed

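Single cones were sorted into 96-well plates, 1 plate and 1 library for each of the uninjected and GSK-J4-treated retinae. To make the deposited counts, the authors aligned reads in the CLC Genomics Workbench, removed PCR duplicates by a molecular identifier and the mapping position, counted reads per gene with featureCounts and summed 3' and 5' counts. The sources name the genome as GRCh38, a human build number, and "adult" stands in the cell names of the treated library although the labels give PN24. The deposited values were whole-number counts without normalization for 17774 genes and 151 cells.

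Following the study's filter, genes had to be seen in 3 or more cells, and cells had to hold 200 or more genes with no more than 5% of mitochondrial counts, which kept 15947 genes in 146 cells. Values were taken per 10000 counts of the cell, and the log-fold is the difference of ln(mean over cells + 1), as in the Seurat version the study used. No batch correction was applied and no doublet caller was run. With 1 library per condition no test was made. Intervals at 95% were exact Poisson for summed counts, exact binomial for ratios of rates and Clopper-Pearson for shares, and a library without a count was set at a floor of 3 counts over that library. Coordinates and coding lengths came from GENCODE vM21 (GRCm38) and promoters from RefSeq (GRCm38.p6). Scripts ran under Python 3.11.15 with scipy 1.17.1, numpy 2.4.6 and pandas 2.3.3, and the log-fold calculation was tested on simulated data. Genes described in full were the catalytic, immunoproteasome, ATPase, activator and assembly genes, *Psmd2*, *Psmd4*, *Psmd14* and the 3 genes with the lowest and the 3 with the highest log-fold; others were named after their values were seen. The members and gene lists were chosen with earlier results of these data known. A few genes of the lists are not reported by name.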

Additional observations from a re-analysis of the deposited data

How the results depend on the processing

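No paired analysis was possible because each condition had 1 library. The 10 alternatives were all deposited genes and cells, cells with at least 500 genes, summed libraries, median-ratio size factors, thinning, a pseudocount of 0.1, each side of the plate, each gene without its highest cell in a library, and, chosen after the data were examined, the 14 treated cells with a cone marker count, of which 11 had 1 to 5. Under these, 19 to 35 of the 44 genes were lower, and 10 were lower under each of them (*Psma2*, *Psma3*, *Psma6*, *Psmb6*, *Psmc1*, *Psmc3*, *Psmc5*, *Psmd4*, *Psmd8* and *Psmd14*). Of all genes, 9.52% to 28.2% were lower and 4.17% to 44.1% higher under these settings, with both maxima at a pseudocount of 0.1. The count of higher genes, 0 in the main setting, was 2 with at least 500 genes per cell, 2 with summed libraries, 2 against treated cells with a cone marker count, 4 with a pseudocount of 0.1, and 1 after thinning and on each side of the plate. With a pseudocount of 0.1 the medians were -1.29 for all, -1.32 for core, -1.34 for regulatory and -0.39 for assembly genes, which follows from the log scale. With median-ratio size factors the core and regulatory medians were -0.76 and -0.40, while the median of all genes moved from 0.03 to -0.02 and the genes lower and higher went from 11.8% and 12.6% to 16.6% and 4.17%. In columns 1 to 6 the core median was -0.23 and the core share 3.56-fold lower (2.33 to 5.74), and the assembly share 1.05-fold lower (0.442 to 3.04). The core share was 8.85-fold lower without the highest cell of each gene and 9.42-fold lower against treated cells with a cone marker count. After thinning, the assembly share was 6.17-fold lower (0.878 to 268), on few counts. Log-folds changed sign for 2 of the lower genes, *Psma1* after thinning (0.024) and *Psmb3* in columns 1 to 6 (0.45). The cause of these shifts was not tested. On the side of columns 1 to 6, *Psma5* and *Psmb4* lay within the limit. The depth of the treated library, 208578 counts, leaves a gene of 0 counts with an upper bound of 3.69 counts, and genes with 0 treated and at most 20 uninjected counts had ratio intervals that include 1.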
